A study of Mus musculus with 12 samples.

Results

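Among 9 genes of extracellular inhibitors of bone morphogenetic protein (BMP), activin and Wnt signals, Grem1 and Fst were higher with both histone deacetylase inhibitors and 12.8-fold to 18.3-fold lower with the BET inhibitor JQ1 in the mouse angiosarcoma line ISOS-1. Dkk2 fell 14-fold with JQ1 and was not called with either histone deacetylase inhibitor. The 9 genes were Grem1, Fst, Fstl1, Fstl3, Dkk2, Dkk3, Sfrp1, Sfrp2 and Bambi, taken by symbol from 55359 gene identifiers, each symbol on 1 row. They were chosen by name with earlier results of these libraries known, so counts over the 9 describe them and support nothing beyond them. Their mean TPM over all 12 libraries would have chosen between repeated rows, and no row was repeated. Of the 9, 7 reached 1 TPM in at least 3 libraries and were tested, and Sfrp1 and Sfrp2 did not.

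The libraries held messenger RNA 3′ ends of wild-type ISOS-1 cells, which the labels call endothelial, in 4 groups of 3 replicates. The vehicle group was given DMSO, with no duration in the labels. SAHA (vorinostat), a hydroxamate inhibitor of histone deacetylases, was given at 1 µM for 24 h. VPA (valproic acid), a fatty acid that inhibits histone deacetylases, was given at 2 mM for 36 h, and JQ1, a ligand of the acetyl-lysine pocket of BET proteins, at 1 µM for 36 h. Drug and exposure time therefore cannot be told apart in comparisons with DMSO or with SAHA. All results come from 1 cell line, and the labels say that treatments were in triplicate without saying whether each came from its own culture. The p-values therefore reflect only library-to-library spread, which may be technical. Values are deposited TPM, an abundance divided by transcript length, although a 3′ tag is read once per transcript whatever its length. The levels of the genes named above were therefore not compared with each other. Sums over marker genes and the mitochondrial share, given below, do add levels of different genes and carry this limit.

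BMPs and activins bind paired serine/threonine kinase receptors, which pass the signal to SMAD proteins in the nucleus. Secreted antagonists trap these ligands before they reach the receptors. Wnt ligands bind Frizzled receptors with the coreceptors LRP5 and LRP6 and stabilise beta-catenin, and their antagonists bind either the ligand or the coreceptor. In blood vessels, BMP signals are known to induce the ID genes, and antagonists of this kind are made by endothelial and stromal cells. Of the 9 genes, Bambi does not encode a secreted protein: its product is a transmembrane pseudoreceptor.

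Most defining endothelial genes were scarce in these cells. Of 15 blood endothelial markers, 4 reached 1 TPM in any library, and Cdh5, Erg, Vwf, Cldn5, Robo4 and Sox17 were listed at 0 in all 12. Over the groups, 13735 to 14799 genes were listed above 0 TPM per library. No pair of libraries was identical. Pairs of one group correlated at 0.934 to 0.947 (Pearson's r over genes, a description, since genes are no replicates), and pairs from different groups at 0.886 to 0.945. An adjusted p under 0.05 over 12836 tested genes (limma) counts as called. By this rule 3.09% of genes were called higher and 2.1% lower with SAHA, 2.95% and 1.32% with VPA, and 12.9% and 21% with JQ1, each against DMSO. The higher calls made up 38.1% of all calls with JQ1 (48.5% with quantile normalization) and 69.2% with VPA (48% with median-of-ratios scaling).

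The windows before the transcription starts of 4 of these genes are shown because 3 of the genes (Grem1, Dkk2 and Fstl3) fell with JQ1 and Fstl1 rose. Each is the 250 bases before the start in RefSeq, build GRCm38.p6, printed in the direction of transcription. The submitters' notes name mm39, so these coordinates belong to the reference table and not to the deposited values. Capitals mark matches on either strand to 6 motifs: the TATA box (TATAAA), the CCAAT box (CCAAT), the GC box (GGGCGG), the E-box (CACGTG), the AP-1 site (TGANTCA) and a palindrome bound by SMAD1 and SMAD5 (GGCGCC). The table held windows for 5 of the 9 genes, of which that of Sfrp2 is not shown because the gene was listed at 0.
Grem1, chr2:113758649-113758898, minus strand:
Grem1: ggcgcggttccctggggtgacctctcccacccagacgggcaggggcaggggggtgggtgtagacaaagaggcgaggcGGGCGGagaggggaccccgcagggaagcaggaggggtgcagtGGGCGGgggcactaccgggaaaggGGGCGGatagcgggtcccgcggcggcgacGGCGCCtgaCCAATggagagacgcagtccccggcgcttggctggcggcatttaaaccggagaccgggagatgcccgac
Dkk2, chr3:132085042-132085291, plus strand:
Dkk2: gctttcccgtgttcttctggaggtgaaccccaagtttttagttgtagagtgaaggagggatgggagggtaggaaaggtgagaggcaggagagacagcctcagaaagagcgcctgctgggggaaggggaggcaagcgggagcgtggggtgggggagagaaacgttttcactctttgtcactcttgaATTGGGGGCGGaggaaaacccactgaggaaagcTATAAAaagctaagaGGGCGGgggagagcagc
Fstl3, chr10:79777024-79777273, plus strand:
Fstl3: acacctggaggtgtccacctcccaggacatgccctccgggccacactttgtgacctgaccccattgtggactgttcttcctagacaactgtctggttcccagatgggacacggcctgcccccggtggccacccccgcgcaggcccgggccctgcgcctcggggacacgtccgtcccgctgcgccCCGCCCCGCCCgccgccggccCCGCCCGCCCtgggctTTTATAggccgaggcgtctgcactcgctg
Fstl1, chr16:37776805-37777054, plus strand:
Fstl1: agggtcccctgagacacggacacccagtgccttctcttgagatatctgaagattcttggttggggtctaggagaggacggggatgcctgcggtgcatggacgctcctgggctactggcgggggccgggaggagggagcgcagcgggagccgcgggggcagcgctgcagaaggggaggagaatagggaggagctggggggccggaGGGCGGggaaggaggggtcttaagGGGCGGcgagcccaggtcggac

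GC boxes were the one motif found in all 4 windows, with 3 in Grem1, 2 in Dkk2, 4 in Fstl3 and 2 in Fstl1. Over all 32851 windows of the table, 32.7% held a GC box. The Fstl3 boxes lie as overlapping pairs, so they are not separate elements. A TATA box began 32 bases before the start of Dkk2 and 29 bases before that of Fstl3, and 12.4% of all windows held one. A CCAAT box lay 69 bases before the start of Grem1 and 65 before that of Dkk2, against 33.8% of all windows. The SMAD palindrome was matched in Grem1, 78 bases before the start, and 9.59% of all windows held it. Neither the E-box (6.02% of all windows) nor the AP-1 site (6.75%) was matched in the 4 windows. GC content was 72% for Grem1, 71.2% for Fstl3, 68% for Fstl1 and 55.6% for Dkk2, against a median of 52.4% over all windows. These matches are letters in a window and are not binding sites shown by these data.

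Grem1 (ENSMUSG00000074934, chromosome 2) encodes gremlin 1, a secreted cystine-knot protein that binds and blocks BMP ligands. It stood at 115.14, 110.7 and 116.44 TPM in the DMSO libraries. With SAHA it was at 267.38, 260.74 and 246.66 TPM, and with VPA at 202.15, 191.32 and 198.41. With JQ1 it was at 4.6, 7.06 and 7.04 TPM. The 4 groups did not overlap: every SAHA and VPA library lay above every DMSO library, and every JQ1 library far below. Libraries wholly above DMSO occurred for 12.9% of all tested genes with SAHA and 15.1% with VPA.

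Grem1 rose 2.26-fold with SAHA, from 114 ± 3.01 to 258 ± 10.6 TPM (mean ± SD, n = 3), a log2 difference of 1.17 on log2(TPM + 1), with an SE of 0.124 and an adjusted p of 0.000463. With VPA the rise was 1.73-fold (log2 difference 0.78, adjusted p = 0.0063). With JQ1 it fell to 6.23 ± 1.41 TPM, 5.46% of the DMSO mean, a log2 difference of −4.01 (95% interval −4.28 to −3.74, adjusted p = 2.33e-09). By size this ranked 8 among the 2690 genes called lower with JQ1. The order of the means was JQ1, DMSO, VPA, SAHA. SAHA exceeded VPA by 0.39 on the log2 scale (95% interval 0.11 to 0.66), which did not pass over all genes (adjusted p = 0.257) but did without JQ1 replicate 1 (0.0442).

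**Figure D1:**
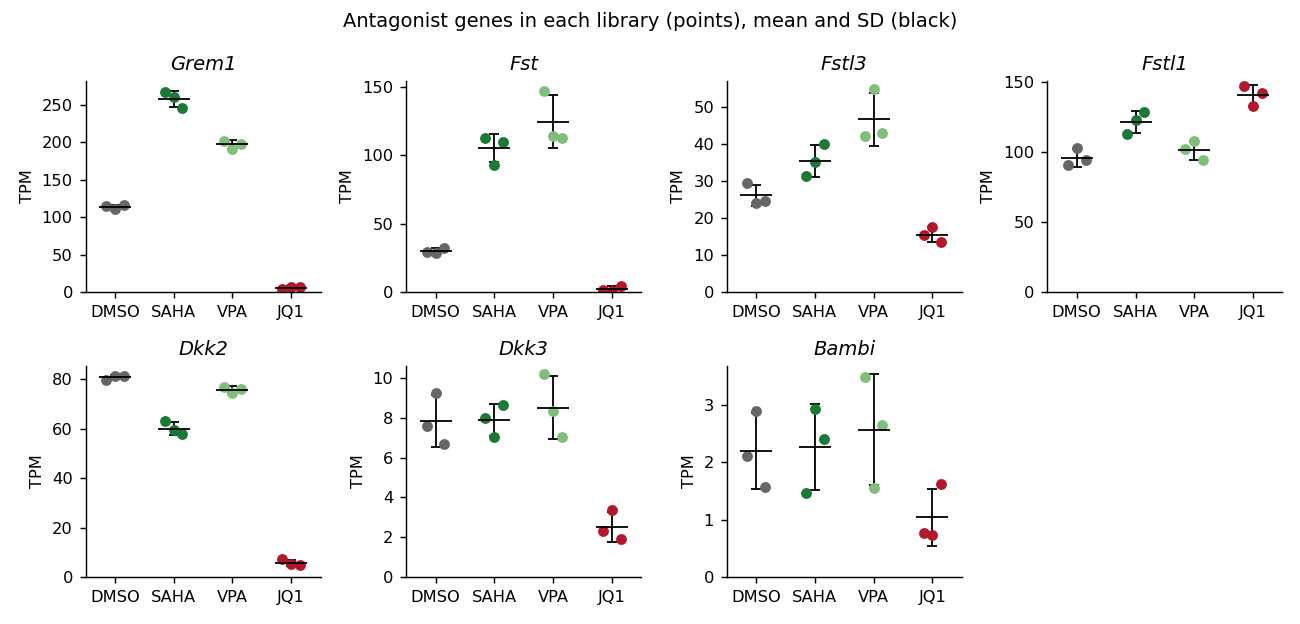
TPM (vertical axis, linear, from 0, with its own scale in each panel) of the 7 tested antagonist genes in the 12 libraries. Each point is 1 library, and the black bars give the mean and SD of the 3 libraries of a group. Grem1 and Fst sit highest with SAHA and VPA and near the axis with JQ1, Dkk2 is near the axis with JQ1 alone, and Fstl1 is highest with JQ1.

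Fst (ENSMUSG00000021765, chromosome 13) encodes follistatin, which binds activins almost irreversibly and also binds some BMPs. The DMSO libraries gave 29.08, 28.56 and 32.39 TPM, the SAHA libraries 112.63, 93.28 and 109.73, and the VPA libraries 146.96, 113.92 and 112.79. With JQ1 they were 1.89, 0.71 and 4.46 TPM. All 6 libraries of the histone deacetylase inhibitors lay above the DMSO libraries, and the 3 JQ1 libraries lay below them, with a wide spread at a low level (CV 81.5%, against 6.92% in DMSO).

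Fst rose 3.51-fold with SAHA (30 ± 2.08 to 105 ± 10.4 TPM, log2 difference 1.77, SE 0.317, adjusted p = 0.00931) and 4.15-fold with VPA (to 125 ± 19.4 TPM, 2.01, adjusted p = 0.0063). These ranked 21 among the 396 genes called higher with SAHA and 17 among the 379 called higher with VPA. With JQ1 it fell to 2.35 ± 1.92 TPM, 7.84% of the DMSO mean (log2 difference −3.37, 95% interval −4.06 to −2.67, adjusted p = 1.16e-05). Because the added 1 TPM understates the change of a gene at so low a level, the difference was −3.95 with a pseudocount of 0.1. The means of SAHA and VPA differed by −0.24 on the log2 scale (95% interval −0.93 to 0.46, adjusted p = 0.833), an interval that allows a difference of either sign. A gene of the opposite strand, Gm47040, overlaps Fst in GENCODE M21 and was listed at 0 to 2.78 TPM. How the counting used strand is not given in the sources used here.

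Fstl3 (ENSMUSG00000020325, chromosome 10), a follistatin-like protein that also binds activins and myostatin, had the same order of means as Fst in smaller steps. The DMSO libraries gave 29.53, 24.21 and 24.78 TPM and the SAHA libraries 31.32, 35.3 and 40.02. Those of VPA gave 42.25, 55.01 and 43.07 TPM and those of JQ1 15.58, 17.64 and 13.47. No JQ1 library reached the lowest DMSO library, and no DMSO library reached the lowest SAHA or VPA library.

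Fstl3 rose 1.79-fold with VPA (26.2 ± 2.92 to 46.8 ± 7.14 TPM, log2 difference 0.81, adjusted p = 0.0123). The call ended without DMSO replicate 2 or 3, without VPA replicate 2 and in a fit of the 2 groups alone, with an adjusted p of up to 0.0542. With SAHA it stood at 35.5 ± 4.36 TPM, 1.36-fold the DMSO mean (log2 difference 0.43, 95% interval 0.1 to 0.75), which did not pass (adjusted p = 0.14). With JQ1 it fell 1.68-fold to 15.6 ± 2.09 TPM (log2 difference −0.72, adjusted p = 0.00333). The protease gene Prss57 overlaps its end on the opposite strand and was listed at 0 to 1.19 TPM.

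Fstl1 (ENSMUSG00000022816, chromosome 16), a secreted glycoprotein of the follistatin domain family that is reported to bind BMP4 in the mouse lung, went the other way with JQ1. The DMSO libraries gave 90.33, 102.53 and 94.29 TPM and the SAHA libraries 112.63, 122.66 and 128.36. Those of VPA gave 101.77, 107.52 and 93.98 TPM and those of JQ1 146.68, 132.25 and 141.54. All JQ1 libraries lay above all other libraries, while the VPA and DMSO libraries overlapped.

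Fstl1 rose 1.46-fold with JQ1 (95.7 ± 6.22 to 140 ± 7.31 TPM, log2 difference 0.55, SE 0.0825, adjusted p = 0.000386), while 12.9% of all tested genes were called higher in that comparison. The 1.27-fold rise with SAHA (to 121 ± 7.96 TPM, log2 difference 0.34, adjusted p = 0.04) was at the edge of the threshold. It ended without any DMSO replicate, without SAHA replicate 2 or 3, JQ1 replicate 1 or 3 or VPA replicate 1, and also with no filter, quantile normalization, the replicate block and a fit of the 2 groups alone (adjusted p up to 0.134). With VPA the log2 difference was 0.08 (95% interval −0.1 to 0.26, adjusted p = 0.682). JQ1 and SAHA, neighbours in the order of means, differed by 0.21 (adjusted p = 0.0749), which passed under quantile normalization and under median-of-ratios scaling.

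Dkk2 (ENSMUSG00000028031, chromosome 3) encodes a dickkopf protein that binds LRP5 and LRP6 and can inhibit or, depending on context, promote Wnt signals. It was even between replicates, at 79.88, 81.41 and 81.19 TPM in DMSO (CV 1.02%). With SAHA it was at 63, 59.44 and 57.74 TPM and with VPA at 77.01, 74.45 and 76.01. With JQ1 it was at 7.17, 5.28 and 4.81 TPM. The JQ1 libraries stood apart from the other 9, and all SAHA and VPA libraries lay just below the DMSO libraries.

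Dkk2 fell 14-fold with JQ1, from 80.8 ± 0.827 to 5.75 ± 1.25 TPM (log2 difference −3.61, SE 0.119, 95% interval −3.88 to −3.35, adjusted p = 3.17e-09). This ranked 12 among the 2690 genes called lower. With SAHA it stood at 60.1 ± 2.68 TPM, 74.3% of the DMSO mean (log2 difference −0.42, adjusted p = 0.0696), which passed without JQ1 replicate 1 or 3 and in a fit of the 2 groups alone (lowest adjusted p 0.0172). With VPA it was at 75.8 ± 1.29 TPM (log2 difference −0.09, 95% interval −0.35 to 0.17, adjusted p = 0.746). Libraries that lie wholly below DMSO are common, at 11.4% of tested genes with SAHA and 8.44% with VPA.

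Dkk3 (ENSMUSG00000030772, chromosome 7) encodes the most divergent dickkopf protein, which is not a classical LRP5 and LRP6 ligand. The DMSO libraries gave 7.6, 9.24 and 6.69 TPM and the SAHA libraries 7.97, 7.04 and 8.66. Those of VPA gave 10.2, 8.32 and 7.04 TPM and those of JQ1 2.31, 3.37 and 1.9. The first 3 groups overlapped one another and the JQ1 libraries lay below all of them. It fell 3.1-fold with JQ1 (7.84 ± 1.29 to 2.53 ± 0.759 TPM, log2 difference −1.34, adjusted p = 0.000477). Its log2 difference was 0.01 with SAHA (95% interval −0.44 to 0.47, adjusted p = 0.987) and 0.1 with VPA (−0.35 to 0.56, adjusted p = 0.851).

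Bambi (ENSMUSG00000024232) encodes a receptor-like membrane protein without a kinase domain, which blocks signals of the TGF-beta family. It was low in every library, with 2.12, 2.89 and 1.57 TPM for DMSO and 1.47, 2.94 and 2.4 for SAHA. The VPA libraries gave 3.49, 1.56 and 2.66 TPM and those of JQ1 0.76, 0.74 and 1.62. All groups overlapped, since JQ1 replicate 3 lay above the lowest library of each other group. Its mean with JQ1 was 47.4% of that in DMSO (log2 difference −0.65, 95% interval −1.32 to 0.01), which did not pass (adjusted p = 0.123). Against VPA the difference of −0.8 (adjusted p = 0.0656) passed without JQ1 replicate 3 or VPA replicate 2 (lowest adjusted p 0.0362).

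The secreted frizzled-related proteins carry a domain like the Wnt-binding part of the receptors. Sfrp1 (ENSMUSG00000031548) was listed at 0 in 11 of 12 libraries and at 0.15 TPM in JQ1 replicate 3. Sfrp2 (ENSMUSG00000027996) was listed at 0 in all 12. TPM keeps no depth, so the lowest level that could have been seen is unknown.

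Across the 9 genes, 3 were called higher and 0 lower with SAHA, and 4 of the 7 tested were not called, where 5.19% of all tested genes were called either way (3.09% higher, 2.1% lower). With VPA the count was again 3 higher and 0 lower, where 4.27% of all genes were called (2.95% higher, 1.32% lower). With JQ1 it was 1 higher and 5 lower, where 33.9% of all genes were called (12.9% higher, 21% lower). The libraries of the 2 groups did not overlap for all 6 of these JQ1 genes, as for 19% of all tested genes in the higher and 26.7% in the lower direction. The median log2 difference of the 7 tested genes was 0.34 with SAHA, 0.14 with VPA and −1.34 with JQ1, beside 0.01, 0.06 and −0.07 over all tested genes. At an unadjusted p under 0.05, limma gave 1 lower gene with SAHA, Dkk2, and 0 with VPA. These 3 comparisons share the DMSO libraries.

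**Figure D2:**
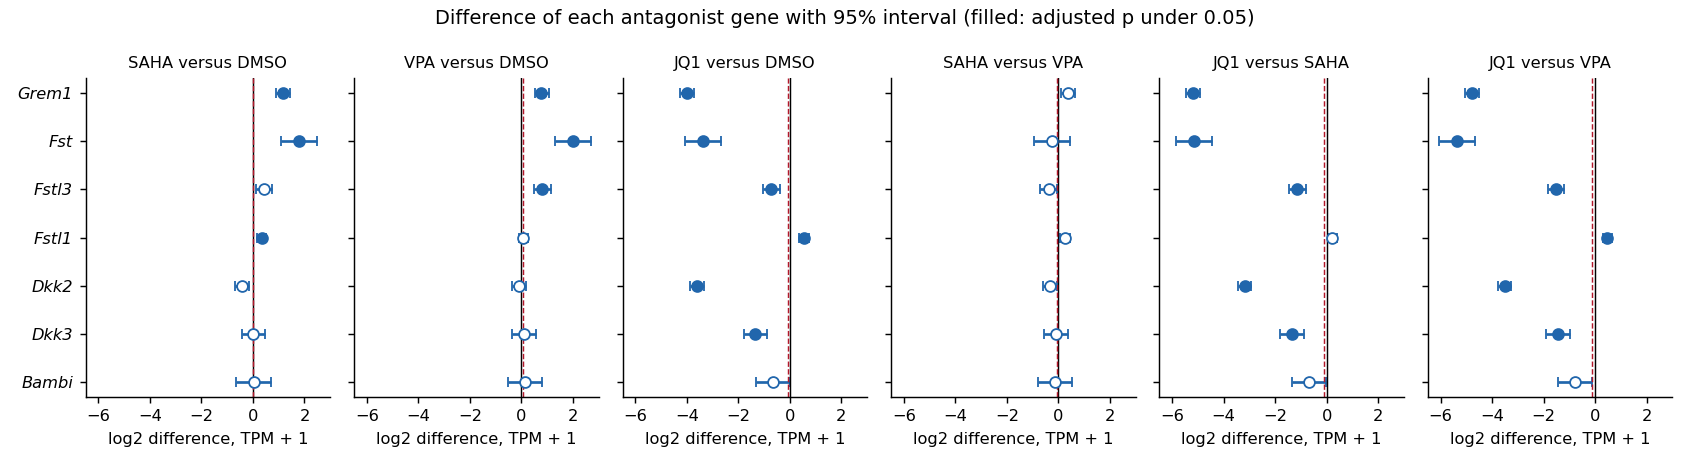
Difference between 2 groups on log2(TPM + 1) (horizontal axis) for the 7 tested antagonist genes (rows) in the 6 comparisons (panels), with 95% intervals from limma. Filled points passed an adjusted p of 0.05 over all genes, the black line marks 0 and the dashed line the median of all tested genes. Grem1, Fst and Dkk2 lie beyond −3 in each panel that sets JQ1 against another group.

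The drugs were also set against each other. The 36 h exposure was common to VPA and JQ1, and between them 5 of the 7 tested genes were lower with JQ1 and Fstl1 was higher, where 33.2% of all tested genes were called (22.9% lower, 10.3% higher). Not overlapping were 29.3% of all genes in the lower and 16% in the higher direction. Fst differed most, at 125 ± 19.4 TPM with VPA and 2.35 ± 1.92 with JQ1 (log2 difference −5.38, 95% interval −6.07 to −4.68, adjusted p = 3.77e-07), and ranked 2 among 2945 genes called lower. Grem1 followed (−4.8, adjusted p = 6.94e-10), then Dkk2 (−3.52, adjusted p = 3.84e-09). Fstl3 was 3.01-fold lower (−1.53, adjusted p = 1.6e-05) and Dkk3 3.37-fold lower (−1.44, adjusted p = 0.000288), and Fstl1 was 1.39-fold higher with JQ1 (0.47, adjusted p = 0.00111). The higher calls were 30.9% of all calls in this comparison, and 47.5% with quantile normalization, which raised the median of all genes by 0.167.

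Against SAHA, given for 24 h, 5 of the 7 genes were lower with JQ1 and limma called 0 higher (1 at an unadjusted p under 0.05, Fstl1), where 33.3% of all tested genes were called (21.3% lower, 11.9% higher). Not overlapping were 26.8% of all genes in the lower and 17.8% in the higher direction. Grem1 (−5.18, adjusted p = 3.35e-10) and Fst (−5.14, adjusted p = 4.59e-07) ranked 2 and 4 among the 2737 genes called lower. Dkk2 differed by −3.19 (adjusted p = 8.14e-09), Dkk3 by −1.35 (adjusted p = 0.000454) and Fstl3 by −1.14 (adjusted p = 0.000139). The higher calls were 35.9% of all calls, and 48.2% with quantile normalization, which raised the median of all genes by 0.11.

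Between SAHA and VPA, which differ in dose and in time, limma called 0 of the 7 genes, where 0.452% of all tested genes were called either way (0.265% higher, 0.187% lower with SAHA). The higher calls were 58.6% of the 58, and 77.7% with median-of-ratios scaling. At an unadjusted p under 0.05 it gave 4, with Grem1 and Fstl1 higher and Fstl3 and Dkk2 lower with SAHA. The largest of these was the log2 difference of 0.39 for Grem1, and that of Dkk2 was −0.33 (95% interval −0.59 to −0.07). These p-values do not show that both drugs act alike on these genes.

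Single markers of other cell types, and the mitochondrial share, moved with some of these results. Of 8 fibroblast markers, 7 reached 1 TPM and 0 were at 0 in all libraries. Their summed level ran from 777 to 820 TPM (DMSO), 1110 to 1260 (SAHA), 992 to 1060 (VPA) and 816 to 848 (JQ1). Thy1 carried the higher sums, at 147 to 162 TPM (DMSO), 477 to 635 (SAHA), 442 to 530 (VPA) and 141 to 161 (JQ1). Col1a2 ran the other way with SAHA and VPA, at 450 to 490 TPM (DMSO), 416 to 435 (SAHA), 364 to 385 (VPA) and 536 to 544 (JQ1). Without Thy1, left out after its values were seen, the fibroblast sum was 622 to 673 TPM (DMSO), 624 to 635 (SAHA), 530 to 552 (VPA) and 676 to 694 (JQ1). These sums with SAHA lay within the DMSO range and those with VPA below it, but Col1a1 and Col1a2 made up most of them. Of the 7 tested fibroblast markers, 4 were called higher and 0 lower with SAHA (3.09% and 2.1% of all genes). With VPA it was 1 and 1 (2.95% and 1.32%), and with JQ1 1 and 2 (12.9% and 21%). Col3a1 was at 18.9 to 19.4 TPM (DMSO), 26.9 to 31.4 (SAHA), 18.4 to 20.9 (VPA) and 2.95 to 3.99 (JQ1). Mfap5 was at 4.66 to 7.17 TPM (DMSO), 13.8 to 29.7 (SAHA), 12.4 to 15.8 (VPA) and 2.19 to 8.65 (JQ1). Pdgfra was at 0.94 to 3.98 TPM (DMSO), 4.01 to 5.49 (SAHA), 4.62 to 6.89 (VPA) and 0 to 0.17 (JQ1). Dcn was at 0 to 0.43 TPM (DMSO), 2.08 to 4.89 (SAHA), 0.66 to 3.74 (VPA) and 0 to 0.37 (JQ1). Col1a1 did not rise, at 142 to 153 TPM (DMSO), 139 to 150 (SAHA), 121 to 138 (VPA) and 132 to 139 (JQ1). The summed blood endothelial markers were 107 to 123 TPM (DMSO), 198 to 217 (SAHA), 131 to 166 (VPA) and 63.2 to 69.2 (JQ1). Nearly all of this was Cd34, at 93.6 to 109 TPM (DMSO), 185 to 204 (SAHA), 118 to 151 (VPA) and 51.8 to 52.9 (JQ1). Without Cd34, chosen in the same way, the ranges overlapped, at 10.8 to 14.6 TPM (DMSO), 5.38 to 14.2 (SAHA), 13.1 to 19 (VPA) and 11.3 to 16.6 (JQ1). Of 6 lymphatic markers, 1 reached 1 TPM, Pdpn, while Flt4, Reln and Mmrn1 were at 0 in all libraries. The sum, nearly that of Pdpn alone, was 69.1 to 77.6 TPM (DMSO), 107 to 122 (SAHA), 105 to 107 (VPA) and 45.8 to 49.1 (JQ1). Of 7 pericyte or smooth muscle markers, 2 reached 1 TPM, Rgs5 and Kcnj8 were at 0 in all, and the sum, mostly Acta2, was 49.1 to 61.5 TPM (DMSO), 34.9 to 40.5 (SAHA), 43.2 to 52.5 (VPA) and 20 to 27.6 (JQ1). Of 7 epithelial markers, Krt19 alone reached 1 TPM, Epcam and Krt5 were at 0 in all, and the sum was 10.8 to 12.9 TPM (DMSO), 21.9 to 25.7 (SAHA), 25.3 to 35.1 (VPA) and 30.4 to 40.3 (JQ1). Leukocyte markers summed to at most 2.21 TPM in any library, with Adgre1 and Itgam at 0. Mitochondrially encoded genes held 14.3 to 15.3% of the TPM in JQ1 and 11 to 12.4% in the other groups. These sums and shares add TPM over genes of different transcript length. The weight of each gene in them therefore depends on the length scaling. The part of these measures in the results was not tested. In bulk libraries, fewer cells of a type and less RNA per cell cannot be told apart.

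Few genes of the ligands that these antagonists bind passed the filter on low values. Of 18 BMP and GDF ligand genes, 8 were at 0 in every library and 1, Gdf1, was tested and not called with any drug (adjusted p at least 0.559). Of 7 activin and myostatin ligand genes, 5 were at 0 in every library and 2 were tested. Inhba, the activin A subunit that follistatin binds, was at 47.94, 38.74 and 39.69 TPM in DMSO and 15.31, 16.32 and 16.24 in JQ1, with all JQ1 libraries below. It fell 2.64-fold with JQ1 (log2 difference −1.34, SE 0.108, adjusted p = 3.35e-06). Gdf11, a relative of myostatin, rose with all 3 drugs, from 2.68 ± 0.204 TPM to 5.55 ± 0.416 with SAHA (adjusted p = 0.0196), 6.32 ± 0.613 with VPA (adjusted p = 0.00947) and 10.9 ± 2.06 with JQ1 (adjusted p = 2.22e-05). The SAHA call of Gdf11 was lost when DMSO replicate 1 or 3, or SAHA replicate 1 or 2, was left out, and both this call and that with VPA ended in a fit of the 2 groups alone (adjusted p 0.0705 and 0.0575).

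The ID genes lie downstream of BMP receptors. On log2(TPM + 1), which understates changes of low genes, they gave the largest differences from DMSO outside the antagonists, with JQ1. By fold of mean TPM, the low gene Atoh8 rose 9.42-fold with JQ1, more than Id1 or Id3. Of 17 tested SMAD and BMP target genes, limma called 5 higher, 0 lower and 12 neither way with JQ1. Among all tested genes, 12.9% were called higher and 21% lower. Among the 12 were Msx1, Msx2, Gata2 and Smad6. At an unadjusted p under 0.05, limma gave 6 higher and 2 lower with JQ1, the lower being Smad2 (−0.99) and Runx2 (−0.54). With SAHA 1 gene rose, and with VPA limma called 0 (3 at an unadjusted p under 0.05). The medians with JQ1, SAHA and VPA were 0.09, −0.05 and 0.02, beside −0.07, 0.01 and 0.06 over all genes. The ID genes encode dominant-negative partners of helix-loop-helix factors. Id1 was at 71.14, 64.77 and 69.21 TPM in DMSO and 448.3, 455.31 and 422.14 in JQ1, a 6.46-fold rise (log2 difference 2.67, adjusted p = 3.19e-09). Id2 rose 9.76-fold, from 10.8 ± 2.88 to 105 ± 11.9 TPM (3.2, adjusted p = 3.49e-07), and Id3 rose 7.65-fold, from 52 ± 7.93 to 398 ± 17 TPM (2.92, adjusted p = 6.74e-08). For each of the 3 ID genes, every JQ1 library lay above every other library. Whether BMP signals had a part in these rises was not tested.

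Atoh8, a helix-loop-helix factor gene, was at 0.45, 0.52 and 0.38 TPM in DMSO and 6.62, 4.76 and 1.34 in JQ1 (log2 difference 1.69, adjusted p = 0.00637). The fifth, the inhibitory SMAD gene Smad7, rose from 2.22 ± 0.301 to 4.87 ± 1.07 TPM (0.86, adjusted p = 0.00985) and was named after its values were seen. With SAHA, Id1 rose 1.38-fold to 94.6 ± 12.7 TPM (log2 difference 0.46, adjusted p = 0.0153). It did not pass without DMSO replicate 2 or in a fit of the 2 groups alone (adjusted p up to 0.0958). Of 7 tested BMP and activin receptor genes, limma called 1 with JQ1, and 0 with SAHA or VPA (2 and 1 at an unadjusted p under 0.05), with medians of −0.05, 0.41 and 0.05. Over all tested genes 33.9% were called with JQ1, and the medians were −0.07, 0.01 and 0.06. The called one was Acvr2a, an activin receptor gene, at 2.39 ± 0.619 against 1.07 ± 0.196 TPM (adjusted p = 0.0363). Its call ended in 8 of 18 alternatives (adjusted p up to 0.137). These were each DMSO replicate left out, JQ1 replicate 1 or 2 left out, no filter, the replicate block and a fit of the 2 groups alone.

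**Figure D3:**
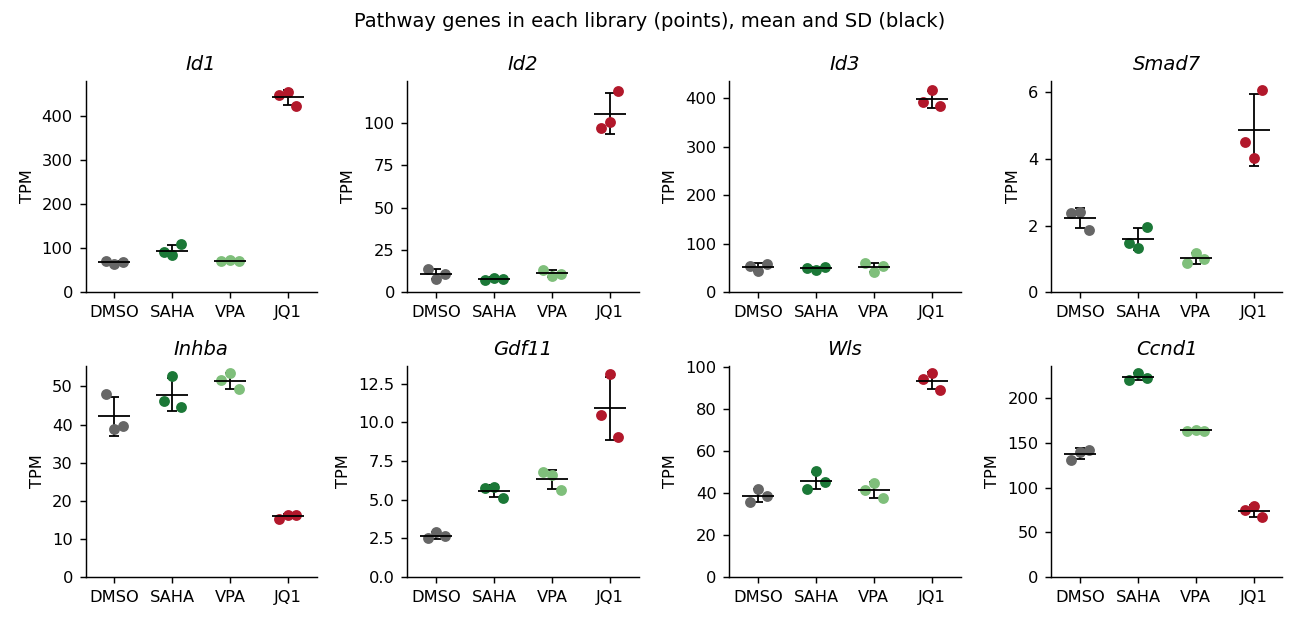
TPM (vertical axis, linear, from 0, with its own scale in each panel) of 8 other pathway genes in the 12 libraries, with the mean and SD of each group in black. Id1, Id2, Id3, Smad7, Gdf11 and Wls stand highest with JQ1, while Inhba and Ccnd1 stand lowest with JQ1.

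Other antagonists of the same pathways were described from 2 further lists. Of 22 further BMP and activin antagonist genes, 6 were tested, and with JQ1 2 rose and 2 fell. Among all tested genes, 12.9% were called higher and 21% lower with JQ1. The medians were 0.25 with SAHA, 0.11 with VPA and 0.24 with JQ1, beside 0.01, 0.06 and −0.07 over all tested genes. Bmper, a secreted modulator of BMPs made by endothelial cells, fell from 2.7 ± 0.48 to 0.293 ± 0.295 TPM (log2 difference −1.53, adjusted p = 0.000897). Smoc2, a matricellular protein gene, was at 1.64, 1.45 and 2.11 TPM in DMSO and 1.33, 3.24 and 1.47 in VPA, and was listed at 0 in all SAHA (adjusted p = 0.0133) and JQ1 libraries (adjusted p = 0.00198). The SAHA call of Smoc2 ended without DMSO replicate 3 (0.0555). Nbl1, a relative of gremlin, rose 2.19-fold with JQ1 to 9.01 ± 2.92 TPM (adjusted p = 0.0304), and Twsg1, a chordin partner, rose 1.49-fold to 11.4 ± 0.74 TPM (adjusted p = 0.0147). The Nbl1 call ended without any DMSO replicate or JQ1 replicate 1 or 2, and with no filter (adjusted p up to 0.114). The Twsg1 call ended without DMSO replicate 2 (0.052).

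Of 16 further Wnt antagonist genes, 6 were tested, 3 of which fell with JQ1, and limma gave 0 calls with SAHA or VPA (0 and 1 at an unadjusted p under 0.05). Called lower with JQ1 were 21% of all tested genes. The medians were 0.03 with SAHA, 0.22 with VPA and −0.77 with JQ1, beside 0.01, 0.06 and −0.07 over all tested genes. Notum, whose product removes the lipid from Wnt ligands, went from 5.51, 6.92 and 4.24 TPM in DMSO to 0, 1.09 and 1.38 in JQ1 (log2 difference −1.92, adjusted p = 0.000769). Igfbp4, a binding protein of insulin-like growth factors that can also block Frizzled and LRP6, fell 4.12-fold (−1.72, adjusted p = 0.0019). Trabd2b, which encodes a protease that cleaves Wnt ligands, fell from 2.2 ± 0.805 to 0.53 ± 0.171 TPM (−1.04, adjusted p = 0.00883).

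Wnt ligands were scarce. Of 25 genes of Wnt ligands, their secretion and R-spondins, 10 were at 0 in every library and 5 were tested. With JQ1, Wls, the carrier of Wnt ligands to the cell surface, rose 2.41-fold from 38.8 ± 3.02 to 93.6 ± 4.12 TPM (log2 difference 1.25, adjusted p = 3.79e-06). The genes of 3 ligands or enhancers fell with JQ1 at low levels, where 21% of all tested genes were called lower and 12.9% higher. Wnt5a was at 1.99 ± 0.806 against 4.32 ± 1.19 TPM (adjusted p = 0.0306). It lost its call without DMSO replicate 2 or JQ1 replicate 1 or 3, with no filter and in a fit of the 2 groups alone (up to 0.114). Wnt7b was at 0.22 ± 0.242 against 1.59 ± 0.774 TPM (adjusted p = 0.0198) and lost its call without DMSO replicate 1 or JQ1 replicate 1 or 3 (up to 0.0811). Rspo2 was at 1.24, 1.11 and 0.48 TPM in DMSO and listed at 0 in JQ1 (adjusted p = 0.0336), and lost its call without DMSO replicate 1 or 2 or any JQ1 replicate (up to 0.108). Of the 5, limma called 0 with SAHA or VPA (2 and 0 at an unadjusted p under 0.05).

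Of 11 tested Wnt receptor genes, 2 rose and 2 fell with JQ1, and limma called 0 with SAHA or VPA (1 each at an unadjusted p under 0.05). Among all tested genes 33.9% were called with JQ1 (12.9% higher, 21% lower), so the receptor count was near that share. Lrp6, the coreceptor that dickkopf proteins bind, rose 2.03-fold to 14.1 ± 1.76 TPM (log2 difference 0.93, adjusted p = 0.00643). Fzd2 rose 1.31-fold to 43.8 ± 3.83 TPM (adjusted p = 0.0269). It did not pass without DMSO replicate 2 or 3 or JQ1 replicate 1 (adjusted p up to 0.0985). Lgr6, an R-spondin receptor gene, fell 3.41-fold (−0.99, adjusted p = 0.00982), and Ryk, a Wnt coreceptor gene, fell 1.35-fold to 61 ± 7.22 TPM (adjusted p = 0.0065), which did not pass with quantile normalization (0.123).

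Of 15 tested genes of the beta-catenin core, 5 rose and 1 fell with JQ1, with a median of 0.37. Over all tested genes 12.9% were called higher and 21% lower, with a median of −0.07. Ctnnb1, beta-catenin itself, rose 1.72-fold from 226 ± 8.86 to 389 ± 4.29 TPM (log2 difference 0.78, adjusted p = 2.75e-06), and its kinase gene Gsk3b rose 1.73-fold to 129 ± 5.93 TPM (0.78, adjusted p = 1.22e-05). The factor gene Tcf7l2 rose 1.89-fold (adjusted p = 0.00473) and the coactivator gene Bcl9l rose 1.79-fold (adjusted p = 0.000518). Gsk3b was the 1 gene of this group called with VPA, at 105 ± 3.19 TPM (0.49, adjusted p = 0.005), and limma called 0 with SAHA (4 at an unadjusted p under 0.05).

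Of 5 tested genes on the list of Wnt targets, 2 fell with JQ1: Ccnd1, cyclin D1, from 138 ± 6.2 to 73.8 ± 6.29 TPM (log2 difference −0.89, adjusted p = 2.96e-06), and Cd44, a hyaluronan receptor gene, from 72.3 ± 3.19 to 38.6 ± 2.67 TPM (−0.89, adjusted p = 1.29e-05). Called lower with JQ1 were 21% of all tested genes. With SAHA, Ccnd1 rose to 224 ± 3.87 TPM (0.7, adjusted p = 0.000368). Lef1, a partner of beta-catenin, was at 1.93, 1.3 and 1.88 TPM with DMSO. It rose with SAHA, to 5.56, 4.69 and 5.72 TPM (adjusted p = 0.0412), and with VPA, to 3.64, 4.44 and 9.98 TPM (adjusted p = 0.0407). The Lef1 call ended in 13 of 19 alternatives with SAHA and in 16 of 19 with VPA (adjusted p up to 0.131 and 0.145). Both ended without any of several libraries, among them each DMSO and each JQ1 replicate. Both also ended with no filter, the filter at 5 TPM and the replicate block. The VPA call ended as well with quantile normalization and in a fit of the 2 groups alone. Axin2, a common readout of Wnt signals, was at 0.95, 0.37 and 0 TPM in DMSO and listed at 0 in all JQ1 libraries (adjusted p = 0.39). The Wnt target list is mixed, since its genes also answer to other signals.

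**Figure D4:**
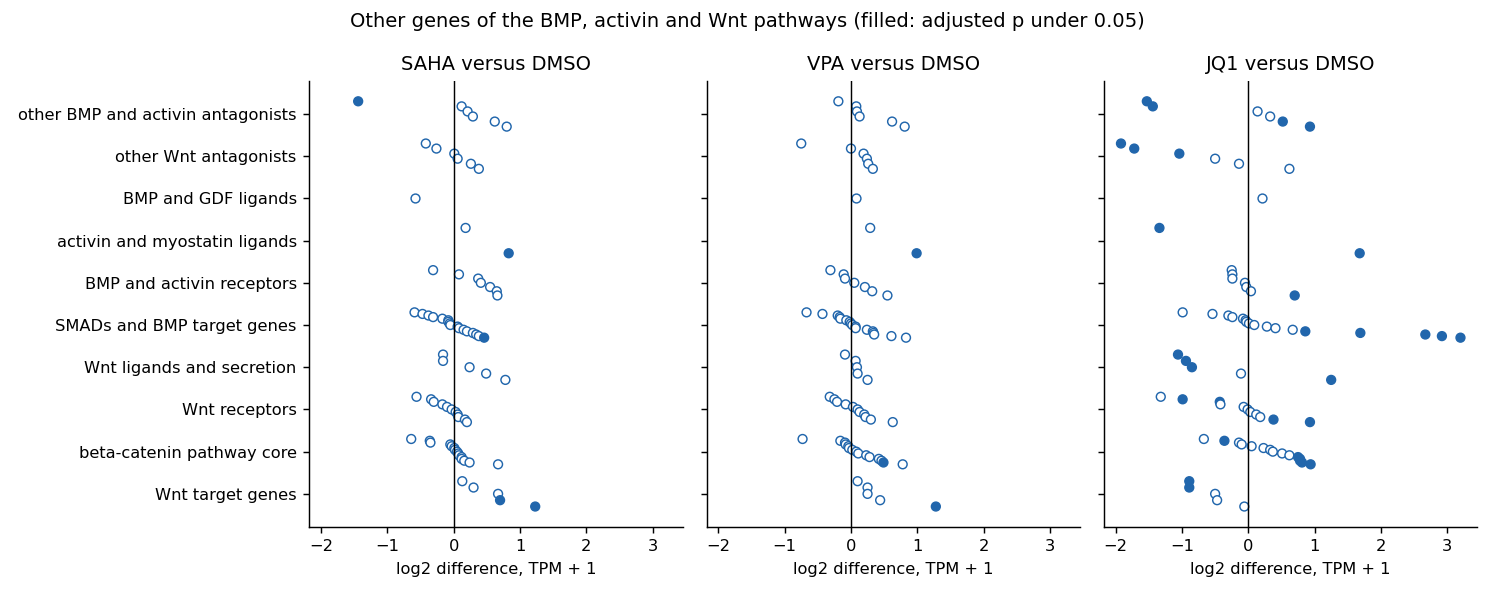
Difference from DMSO on log2(TPM + 1) (horizontal axis) for each tested gene of 10 lists around the antagonists (rows), with SAHA, VPA and JQ1 in separate panels. Each point is 1 gene, and filled points passed an adjusted p of 0.05 over all genes. The 3 ID genes lie at 2.67 to 3.2 with JQ1, and with VPA 3 points are filled.

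The genes closest in pattern to each antagonist were found by Pearson's r over the 12 libraries on log2(TPM + 1), among 7109 other named genes with a mean of at least 5 TPM. Where the JQ1 libraries of a gene stand far from the other 9, r largely reflects that step. Grem1, Fst, Fstl3 and Fstl1 were also called in a comparison among the other 9. For Dkk2, the DMSO, SAHA and VPA libraries did not overlap, though limma called no difference among these groups. The r is given as a description. Grem1 was most like Pdap1 (r = 0.995), Pdia6 (0.994) and Procr (0.992), the endothelial protein C receptor gene, with means of 64.4, 85.6, 79 and 22.6 TPM for DMSO, SAHA, VPA and JQ1. Fst was most like Dpysl3 (r = 0.989), Arl4c (0.988) and Arhgdib (0.985). Fstl3 was most like Imp4 (r = 0.972), Errfi1 (0.962) and Adgrl1 (0.961).

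Dkk2 was most like Ckap4 (r = 0.998), Birc5 (0.997) and Cdk1 (0.996), the last of which stood at 249, 216, 225 and 63.9 TPM in that order of groups. Dkk3 was most like Slc16a11 (r = 0.979), Eps8 (0.979) and Wdr45b (0.978). Fstl1 was most like Ccn2 (r = 0.952), the connective tissue growth factor gene, at 106, 211, 132 and 242 TPM in the same order, followed by Slc25a30 (0.949) and Otud7b (0.945). The low gene Bambi had the weakest likeness, to Psma5 (r = 0.911), Ankrd28 (0.896) and Ccdc6 (0.886).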

How the data were processed

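The 12 libraries were QuantSeq 3′ libraries, and per the labels' protocols and file headers the authors deposited 1 matrix of TPM, a length-scaled abundance with the same total in each library. Named in the submitters' processing notes, without roles, are mm39, edgeR, RSEM, STAR and bcl2fastq 2.17. TPM keeps no depth, so the depth per library is unknown and no counting interval is given. All 12 columns were mapped to labelled samples, with 0 columns of no sample.

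Genes that reached 1 TPM in 3 or more libraries (12836 of 55359) were tested on log2(TPM + 1) with limma 3.58.1 (R 4.3.3, lmFit and eBayes with trend). The fit had 4 group means and 8 residual degrees of freedom. P-values were two-sided and Benjamini-Hochberg adjusted over all tested genes in each of 6 comparisons. The fit was tested on simulated data. Of the tested genes, 10928 had a symbol in the matrix, 1842 took it from GENCODE M21 and 66 had none. Promoter windows came from RefSeq (GRCm38.p6), read with Python 3.11.15, and plots were drawn with matplotlib 3.10.9.

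The 9 genes and all gene lists were chosen with earlier results of these data known. Named besides them were up to 4 called genes of each list, by largest absolute log2 difference from DMSO, and the 3 genes most like each antagonist. Gdf1, Axin2, Smad2, Smad6, Smad7, Runx2, Msx1, Msx2, Gata2 and single markers fall outside this rule and were named after their values were seen. Other pseudocounts, filters, scalings, fits and libraries left out were tried. The lists of markers and pathway genes were not tested as sets.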

Additional observations from a re-analysis of the deposited data

How the results depend on the processing

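Over the alternatives tried, the Grem1 and Fst calls against DMSO with each drug, and the JQ1 calls of Fstl1, Fstl3, Dkk2 and Dkk3 against DMSO, kept their direction and stayed called. The log2 difference with JQ1 ranged from −4.20 to −3.84 for Grem1 and from −3.95 to −2.96 for Fst. A fit of the 2 groups alone called 369 genes for SAHA against DMSO (666 as reported), 243 for VPA against DMSO (548) and 19 for SAHA against VPA (58), with fewer samples in the fit, and median-of-ratios scaling called 94 for SAHA against VPA. Leaving out 1 library gave 365 to 644 genes for SAHA against DMSO, 295 to 515 for VPA against DMSO, 14 to 64 for SAHA against VPA, 3660 to 4368 for JQ1 against DMSO, 3641 to 4226 for JQ1 against SAHA and 3649 to 4273 for JQ1 against VPA. Of the 7 antagonists tested, it gave 0 to 1 for SAHA against VPA, 2 to 3 for SAHA or VPA against DMSO, and 6 to 7 for JQ1 against VPA. The cause was not tested.

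Differences near 0 changed sign, none of them called. Leaving out 1 library, Dkk3 ranged from −0.08 to 0.12 for SAHA against DMSO, −0.02 to 0.22 for VPA against DMSO and −0.2 to 0.03 for SAHA against VPA. Bambi ranged from −0.12 to 0.22, from −0.04 to 0.36 and from −0.34 to 0.07 in the same order, and was −0.01 with quantile normalization for SAHA against DMSO.

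With the replicate number as a block, 481, 399 and 4178 genes were called for SAHA, VPA and JQ1 against DMSO, 24 for SAHA against VPA, 4079 for JQ1 against SAHA and 4107 for JQ1 against VPA. For same-numbered libraries, the correlation of their deviations from the group means was −0.045 to 0.079 over 18 pairs, 0 of them over 0.1. For libraries of other numbers it was −0.067 to 0.056 over 36 pairs. What same-numbered libraries shared besides the number was not tested. Depth is unknown, so the smallest level that could be seen, as for Sfrp1 and Sfrp2, is not set.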
